A study of Arabidopsis thaliana with 4 samples.

Results

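The NAC transcription factor genes targeted by the microRNA miR164 were followed in Arabidopsis thaliana seedlings of ecotype Col-0, in wild type (WT) and in a line overexpressing miR164 (miR164OE), with and without prolonged heat. The set was chosen by locus code and holds 7 of the 32823 rows of the deposited table. It consists of the 6 target genes NAC1 (AT1G56010), ORE1 (AT5G39610), CUC1 (AT3G15170), CUC2 (AT5G53950), NAC080 (AT5G07680) and NAC100 (AT5G61430), and of AT1G08087, a non-coding RNA row that lies inside NAC1 on the other strand. All 4 libraries were made from whole seedlings raised at 22 °C in 16 h of light and 8 h of dark. In WT heat and miR164OE heat the seedlings were 5 days old when they were moved to 35 °C, where they stayed for 5 days. The labels give no age for WT control and miR164OE control, and neither the promoter nor the number of lines behind miR164OE. There was 1 library per group, so each difference below is between 2 single libraries, has no replicate check and carries no p-value.

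MicroRNAs of plants guide an Argonaute protein to transcripts with near-complete complementarity, which are then cut within the paired stretch. miR164 is known for restraining NAC genes in this way, and plants with excess miR164 have lower levels of these transcripts and fused organs like those of mutants lacking both CUC1 and CUC2. In older leaves a decline of miR164 accompanies the rise of ORE1, a promoter of senescence, and in roots miR164 limits NAC1, which carries auxin signals to lateral root formation. A lower level of each target in miR164OE than in WT is therefore the direction that overexpression would predict.

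The microRNA itself is shown first because every target is defined by its pairing with it. Sequences were taken from the RefSeq annotation and genome of assembly TAIR10.1, run 5′ to 3′, and carry the seed, bases 2 to 8, in capitals. The loci are chr2:19520770-19520790 for miR164a, chr5:287586-287606 for miR164b-5p and chr5:9852684-9852704 for miR164c-5p, all on the plus strand. All 3 share the seed, miR164a and miR164b-5p were identical, and miR164c-5p differed from them at 1 of 21 bases.
miR164a: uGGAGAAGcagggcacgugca
miR164b-5p: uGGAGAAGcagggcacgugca
miR164c-5p: uGGAGAAGcagggcacgugcg

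Each target carried 1 site complementary to miR164a over 21 bases, inside the coding sequence and in the last exon of the transcript scanned. The sites are printed as RNA, 5′ to 3′, with bases in Watson-Crick pairs in capitals and mismatches and G:U pairs in lower case, so that the right end of each site faces the seed of the microRNA. The last 3 lines are the best match in AT1G08087 and the sites of the 2 genes outside the set that scored 3 or less.
NAC1: aGCACGUaCCCUGCUUCUCCA
ORE1: cuCACGUGaCCUGCUUCUCCg
CUC1: aGCACGUGuCCUGuUUCUCCA
CUC2: aGCACGUGuCCUGuUUCUCCA
NAC080: UuuACGUGCCCUGCUUCUCCA
NAC100: UcuACGUGCCCUGCUUCUCCA
AT1G08087: UauAuGUGuauUaaUUuUaCc
AT3G12977: aGCAuGUaCCCUGCUUCUCCA
AT1G10530: UaCACGUGuCCaGCUUCUCCg

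The sites lie at chr1:20947142-20947162 on the minus strand in NAC1, chr5:15858797-15858817 minus in ORE1, chr3:5111137-5111157 plus in CUC1, chr5:21902301-21902321 minus in CUC2, chr5:2436958-2436978 plus in NAC080 and chr5:24701687-24701707 minus in NAC100. Scored with 1 for a mismatch and 0.5 for a G:U pair, NAC080 and NAC100 had the lowest score, 1.5, with 19 bases paired. NAC1 scored 2, also with 19 bases paired and with 2 mismatches. CUC1 and CUC2 had the same 21 bases and scored 2, with 18 bases paired, 2 G:U pairs and 1 mismatch. ORE1 had the weakest match of the 6, a score of 3.5 with 17 bases paired, 1 G:U pair and 3 mismatches. The transcript of AT1G08087 had no such site, with a best score of 8.5 against a median of 7.5 over all 37142 genes scanned.

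Only 7 genes of the annotation scored 3 or less, and 5 of them were targets in the set. The other 2 were AT3G12977, annotated as a NAC domain gene, with a score of 2.5 at chr3:4145631-4145651 on the plus strand, and AT1G10530, with a score of 3 at chr1:3472288-3472308 on the minus strand. ORE1 stood outside this limit, as 1 of 12 genes with a score of 3.5. A match is a description of the letters and does not show that a transcript is cut.

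**Figure D1:**
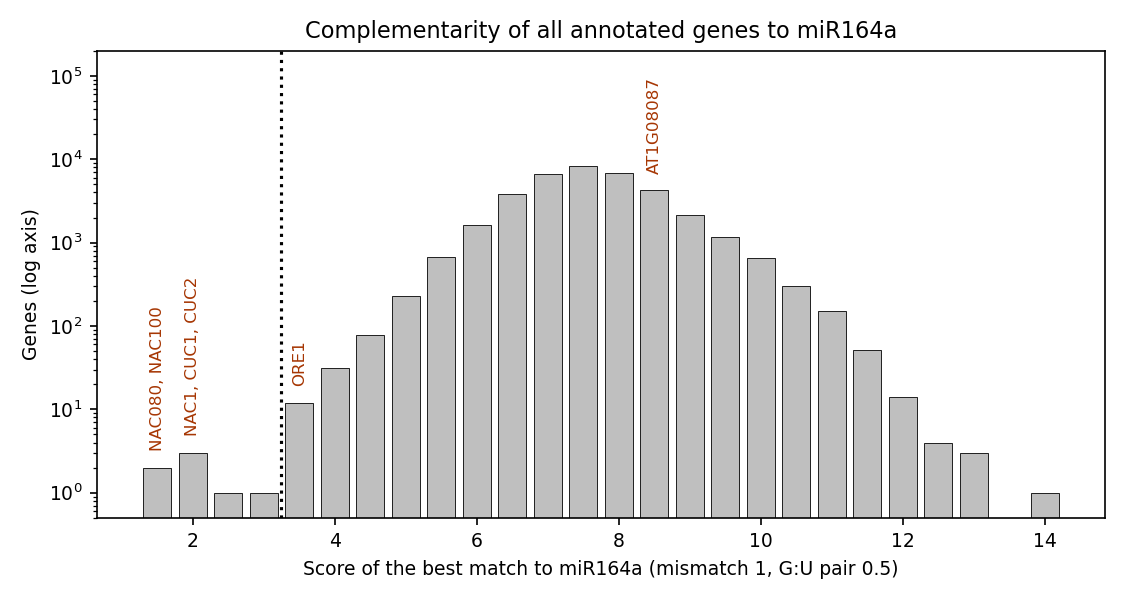
Number of annotated genes (log axis) by the score of their best match to miR164a, where a lower score is a closer match. NAC080 and NAC100 stand at 1.5, NAC1, CUC1 and CUC2 at 2, ORE1 at 3.5 to the right of the dotted limit, and AT1G08087 at 8.5 within the bulk of all genes.

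Levels were deposited as FPKM, the fragments on a gene scaled by its length and by the mapped fragments of the library, so genes of different length can be compared. The worth of 1 fragment on a transcript of 1 kb was estimated as 1.95 FPKM in the control and 1.71 in the heat library of WT, and as 1.87 and 1.19 in those of miR164OE, and 56.2% to 69.2% of all rows were listed at 0 in a library. All 4 green tissue markers were above 0 in every library, RBCS1A at 69.7 to 92.1 FPKM, while LHCB1.3, LHCB1.1 and RCA were lower in the heat than in the control library of each genotype. LHCB1.3 was listed at 169.4 FPKM without and 25.5 with heat in WT and at 159.8 and 33.7 in miR164OE, LHCB1.1 at 51.05, 9.47, 29.2 and 9.55, and RCA at 177.6, 55.2, 137.7 and 93.7 in the same order. The part of this shift in the heat differences of the targets was not tested. The root gene PYK10 was listed at 21.1 to 41.7 FPKM, while the root genes NRT2.1 and IRT1 and the seed and flower markers CRA1, OLEO1, AG and AP3 were listed at 0 in all 4 libraries. The precursor genes MIR164A, MIR164B and MIR164C, 113, 153 and 102 bases long, were also listed at 0 in all 4 libraries. On MIR164A 3 fragments would be worth 51.8 and 45.4 FPKM in the control and heat libraries of WT, and 49.6 and 31.6 in those of miR164OE. Below, 4 library values in a row follow this order: control and heat of WT, then control and heat of miR164OE. Medians of gene lists follow the order of comparisons: heat in WT, heat in miR164OE, then miR164OE minus WT without and with heat. The overexpression named by the genotype label could not be checked on the short rows of the precursors.

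CUC1 and CUC2, which set the boundaries between organs and are needed to form the shoot meristem, were listed at 0 FPKM in all 4 libraries. NAC080 and NAC100, for which less is known, were listed at 0 in all 4 as well. CUC1 lies at chr3:5109782-5111608 on the plus strand, CUC2 at chr5:21901704-21903854 minus, NAC080 at chr5:2435795-2437661 plus and NAC100 at chr5:24701062-24702787 minus. In libraries of this depth 3 fragments would be worth 4.73, 4.15, 4.54 and 2.89 FPKM on CUC1 and 3.56, 3.13, 3.42 and 2.18 FPKM on NAC100, in the same order of libraries. For CUC2 and NAC080 these amounts ranged from 2.46 to 4.04 and from 2.20 to 3.60 FPKM. Listed at 0 in every library, these 4 genes bear on neither direction, and low levels could have gone unseen. The strand setting used in counting is not given in the sources used here, and its part in these zeros was not tested. A listed 0 is therefore not read as absence of the transcript. A row at 0 in every library was common: 40% of 27442 nuclear coding rows and 44.9% of the 19672 that no other gene overlaps were listed at 0 in all 4, as were 45 of 100 numbered NAC genes, or 45%.

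NAC1 (chr1:20946571-20949281, minus strand) was listed at 5.43 FPKM in the control and 38.3 in the heat library of WT, and at 11.005 and 27.2 FPKM in those of miR164OE. Both heat libraries were above both control libraries, WT heat was the highest and WT control the lowest. NAC1 stood above 88.4%, 96.3%, 92.6% and 95.5% of nuclear coding rows in these libraries. Over the 2609 exon bases of its annotated transcripts the values correspond to about 7.26, 58.4, 15.4 and 59.6 fragments, and to about 3.88, 31.2, 8.20 and 31.8 if only its shortest transcript was present. Counting error alone gave 95% intervals of 2.103 to 10.8 and 28.9 to 49.1 FPKM in WT, without and with heat, and of 6.02 to 17.7 and 20.9 to 35.2 FPKM in miR164OE. The intervals of the 2 heat libraries overlapped, as did those of the 2 control libraries. Those of WT heat and WT control, and of miR164OE heat and miR164OE control, did not. All intervals given for NAC1 use the 2609 exon bases. With the fewer fragments of the shortest transcript they would be wider, and whether they would overlap was not computed.

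ORE1 (chr5:15858398-15859911, minus strand, 1312 exon bases) was listed at 2.73 FPKM in the control and 11.2 in the heat library of WT, and at 0 and 1.48 FPKM in those of miR164OE. Each miR164OE library was below both WT libraries, and WT heat was the highest. The values rest on about 1.83, 8.62, 0 and 1.63 fragments. Counting error alone gave 95% intervals of 0.360 to 10.7, 5.36 to 22.3, 0 to 5.26 and 0.220 to 6.55 FPKM in the same order. The interval of WT heat overlapped those of WT control and miR164OE heat but lay narrowly above that of miR164OE control, at 5.36 against 5.26 FPKM. This margin rests on rounding 8.62 fragments to 9, and whether it holds without the rounding was not computed.

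AT1G08087 (chr1:20948161-20948969, plus strand, 809 exon bases) is annotated as a long non-coding RNA and is no target of miR164 by the scan above. It was listed at 35.9 FPKM in the control and 96.2 in the heat library of WT, and at 49.2 and 65.7 FPKM in those of miR164OE. The order of the libraries was the same as for NAC1, and the row was above NAC1 in all 4. These values correspond to about 14.9, 45.5, 21.3 and 44.6 fragments, with counting intervals of 20.2 to 59.6, 69.4 to 127.3, 30.0 to 74.2 and 48.3 to 88.6 FPKM. The interval of WT heat lay above that of WT control, and the intervals of the 2 heat libraries and of the 2 miR164OE libraries overlapped.

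**Figure D2:**
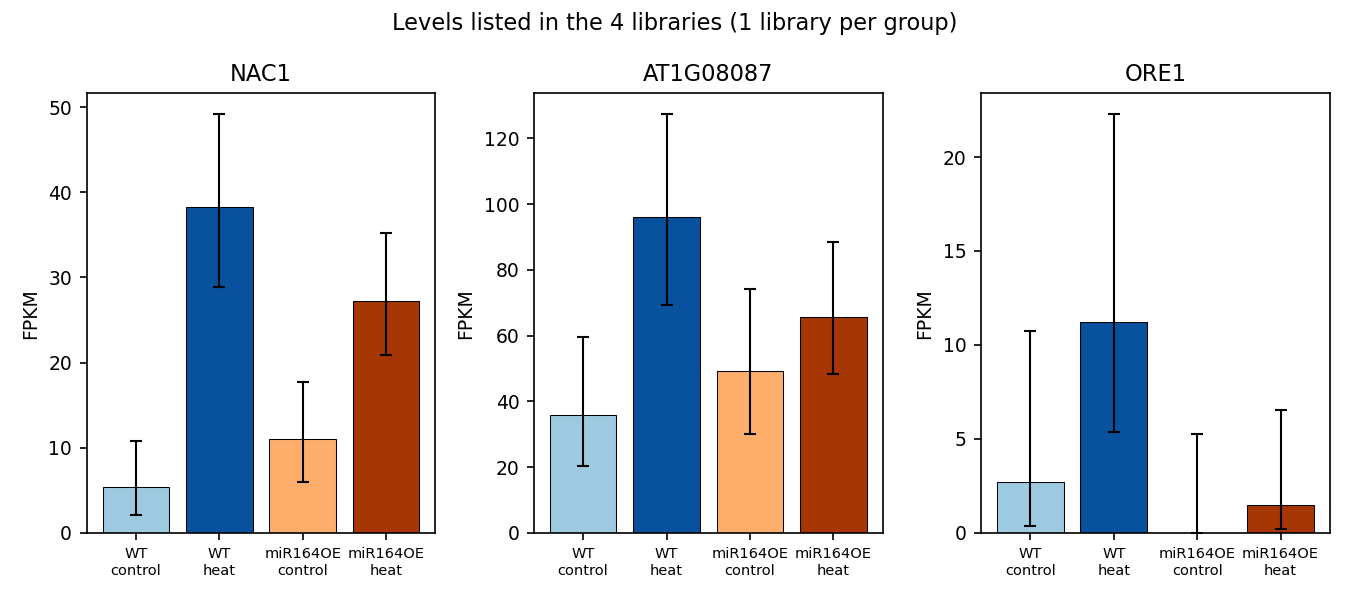
FPKM of NAC1, AT1G08087 and ORE1 in the 4 libraries, 1 library per bar, with bars starting at 0 and lines giving the 95% Poisson interval of the approximate fragments behind each value (counting error only). NAC1 runs from 5.43 in WT control to 38.3 in WT heat, AT1G08087 from 35.9 to 96.2, and ORE1 from 0 in miR164OE control to 11.2 in WT heat.

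The first comparison asked what heat was accompanied by in WT. On the log2(FPKM + 1) scale, which understates the change of low rows, NAC1 differed by 2.61 between WT heat and WT control, a 7.06-fold higher level with a counting interval of 3.31 to 18.9. ORE1 differed by 1.72, a 4.12-fold higher level whose counting interval of 0.817 to 37.5 included no change, since about 9 fragments stood against 2. AT1G08087 differed by 1.39, or 2.68-fold with an interval of 1.44 to 5.08. All 3 passed the size used for a call, a difference of 1 on the log2 scale or 2-fold, which 29.8% of the 10488 rows averaging 1 FPKM or more passed upwards and 21.7% downwards. Among these rows NAC1 stood above 91.6%, ORE1 above 81.8% and AT1G08087 above 76.9%. In bulk seedlings, fewer cells of a type and less RNA per cell cannot be told apart.

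In miR164OE, NAC1 was again higher with heat, by 1.23 on the log2 scale or 2.47-fold, with a counting interval of 1.43 to 4.83. ORE1 was listed at 0 in miR164OE control, so no fold was formed, and its difference of 1.31 rests on about 2 fragments in miR164OE heat. AT1G08087 differed by 0.41, or 1.33-fold with an interval of 0.796 to 2.41, and was not called. By this size 32.5% of all rows were higher and 17.2% lower, and the median row was itself 0.25 higher on this scale. NAC1 stood above 72.0% of rows and ORE1 above 73.5%, against 53.7% for AT1G08087. The call of NAC1 was near the limit: with coding rows that no gene overlaps rescaled to a common sum, its difference was 0.99, and with all nuclear rows rescaled, which moved the median row to 1.09, it was 2.12. The latter scale gave 3.32 for heat in WT, with the median row at 0.70.

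Without heat, the 2 targets above 0 in either control library went in opposite directions, ORE1 in the one that overexpression would predict. NAC1 was higher in miR164OE control than in WT control, by 0.90 on the log2 scale or 2.03-fold, with a counting interval of 0.789 to 5.96 that included no change. ORE1 was listed at 0 in miR164OE control after 2.73 FPKM in WT control, a difference of -1.90 that rests on about 2 fragments against none. The counting interval of its ratio, 0 to 5.11, included no change as well. AT1G08087 was higher by 0.44, or 1.37-fold with an interval of 0.660 to 2.80. Thus 1 of the 6 targets was lower in miR164OE control by any amount, 1 was higher and 4 were at 0 in both libraries, and 48.1% of all rows were lower by any amount. By the 2-fold size ORE1 was called lower, as were 18.9% of all rows, and 16.8% were called higher. NAC1 missed the size with a pseudocount of 1 and passed it with one of 0.1, at 1.01.

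With heat, both targets above 0 were lower in miR164OE, in a comparison where 46.5% of all rows were lower by any amount. ORE1 was listed at 1.48 FPKM in miR164OE heat against 11.2 in WT heat, so that its level in WT was 7.61-fold higher with a counting interval of 1.34 to 61.5. On the log2 scale the difference was -2.30, and 3.91% of all rows had a lower one. NAC1 was lower by 0.48 on the log2 scale, at 0.710 times the WT level with an interval of 0.493 to 1.051, and about 60 fragments stood against 58. AT1G08087 was at 0.683 times the WT level, with an interval of 0.450 to 1.08 and a difference of -0.54. By the 2-fold size ORE1 was called lower, as were 13.6% of all rows, while 19.6% were called higher.

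ORE1 was the sole target called lower in miR164OE in both genotype comparisons, and with a pseudocount of 5 its call without heat was lost, at -0.63. Of all rows 2.69% met that description, and 21.4% were lower in both by any amount. Of the coding rows alone it was 241 of 8998, or 2.68%. NAC1 and AT1G08087 were higher without heat and lower with heat, as were 19.4% of all rows.

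**Figure D3:**
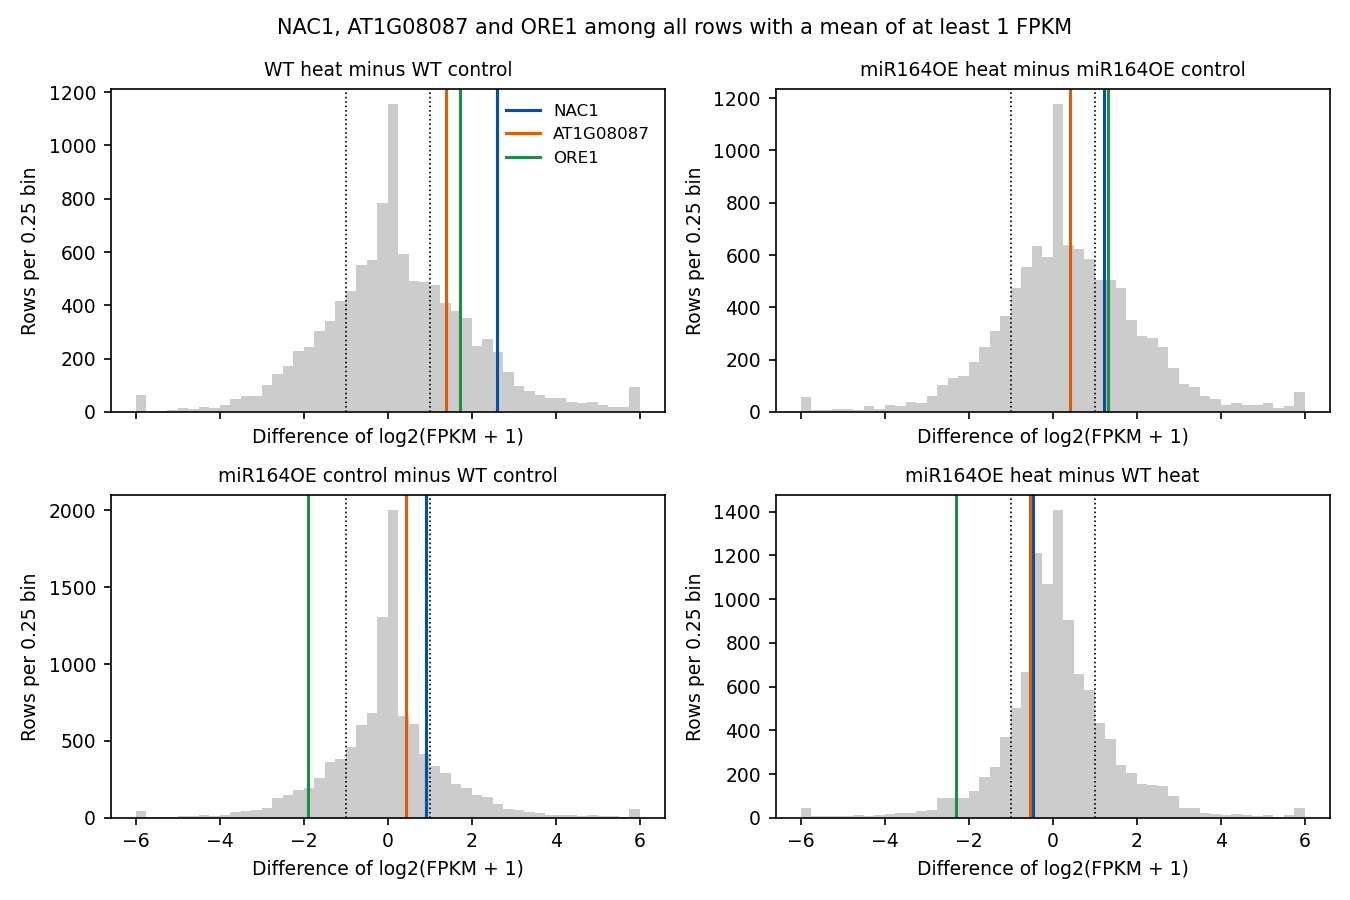
Differences of log2(FPKM + 1) in the 4 comparisons for NAC1 (blue), AT1G08087 (orange) and ORE1 (green), drawn over the distribution of all 10488 rows in grey, whose end bins hold all rows beyond the axis. Dotted lines mark 2-fold. ORE1 lies in the lower tail of both genotype comparisons, at -1.90 and -2.30, and NAC1 lies to the right of 0 in 3 panels and at -0.48 in the fourth.

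The heat differences of the genotypes were then subtracted from each other, miR164OE minus WT. For NAC1 the heat difference was 2.61 in WT and 1.23 in miR164OE, which left -1.38, and 16.4% of rows had a lower value. For AT1G08087 it was 1.39 and 0.41, which left -0.99 with 22.5% of rows lower. For ORE1 it was 1.72 and 1.31, which left -0.41 with 35.8% of rows lower. By the 2-fold size 22.3% of all rows were called lower and 27.7% higher, and NAC1 was the sole target called. The value of ORE1 took the other sign, 1.975, with a pseudocount of 0.1, because 1 of its 4 levels is 0. This quantity draws on 4 single libraries, and the difference between genotypes was not tested.

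NAC1 has a structure that bears on how its row can be read. Its first annotated transcript has 3 exons of 336, 281 and 776 bases, and the second has 2 exons of 1521 and 776 bases and starts 312 bases downstream, inside the first exon of the former. AT1G08087 lies within the first intron of the first transcript except for 24 bases, and wholly within the first exon of the second transcript, with 809 bases shared. The miR164 site is in the 776-base exon that both NAC1 transcripts have, away from the stretch that AT1G08087 covers. At its other end NAC1 shares 148 exon bases with AT1G56000, a plus-strand gene listed at 0 in all 4 libraries. Each of the other 5 targets is overlapped by no annotated gene, so no row on the other strand can be set beside theirs. The strand setting of the counting, which is not given, applies to their rows too. What it meant for them, ORE1 included, was not tested.

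**Figure D4:**
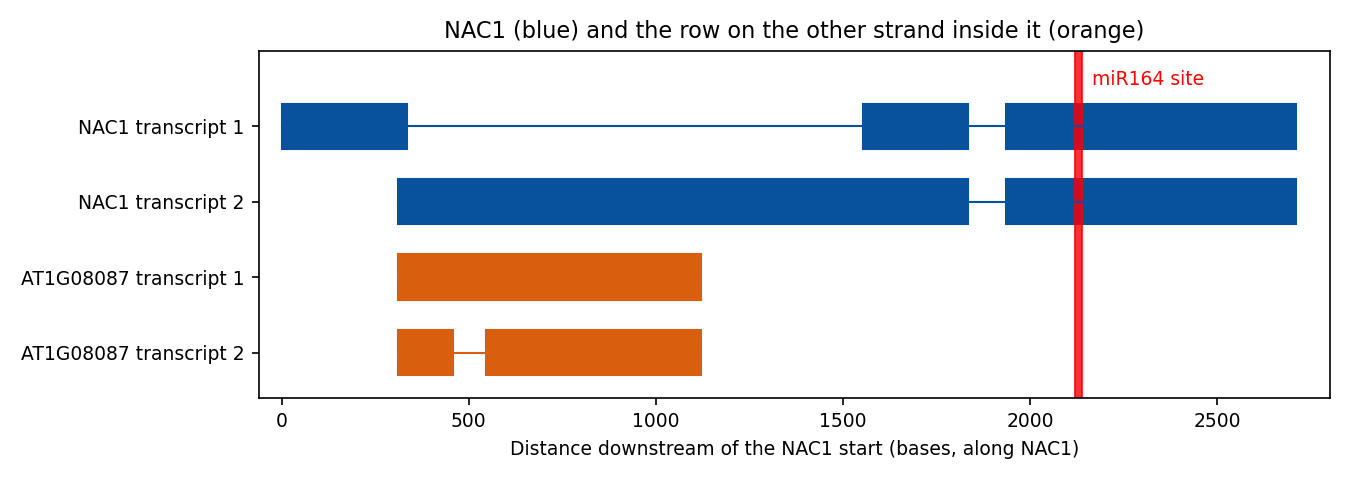
Exons (boxes) and introns (lines) of the annotated NAC1 (blue) and AT1G08087 (orange) transcripts against distance downstream of the NAC1 start in bases, with the miR164 site in red. AT1G08087 lies within the long first exon of 1 NAC1 transcript and, but for 24 bases, within the first intron of the other, and the site lies in the last exon of both NAC1 transcripts.

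The second transcript of AT1G08087 is annotated with an intron of 89 bases at chr1:20948736-20948824. Its borders are printed from the plus strand, 10 exon and 10 intron bases at the first border and the reverse at the second, with the terminal bases of the intron in capitals, because they show the strand on which the intron is annotated to be spliced.
first border: aataaatgagGTgacatcat
second border: ttgtttctAGaaaaccatga
On the plus strand the intron begins with GT and ends with AG, the usual signals. Read on the strand of NAC1 it begins with CT and ends with AC.

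The libraries came from a strand-specific kit, and the strand setting used in counting is not given in the sources used here. NAC1 was listed at 15.1%, 39.8%, 22.4% and 41.4% of the level of AT1G08087 in the 4 libraries. Across 244 to 248 coding genes with a non-coding row of at least 300 bases and 20 FPKM on average inside them on the other strand, the median of this share was 0.125%, 0.360%, 0.137% and 0.486%. NAC1 stood above 90.2%, 91.1%, 93.0% and 91.9% of these pairs, among which its own pair was counted. The non-coding rows were not matched to AT1G08087 in level: their mean had a median of 305.4 FPKM against 61.7 for AT1G08087, which stood above 14.1% of them. The share thus moved with heat at NAC1 and in the median pair alike, and what part of the fragments on either row came from which strand of the locus was not tested. Were NAC1 read from AT1G08087, its difference would be 0.41 for heat in miR164OE, below the size for a call, and -0.99 for the difference of heat differences.

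AT1G08087 was set beside the 249 non-coding rows of this kind, a set that includes it, as the coding rows around them include NAC1. With heat in WT AT1G08087 stood above 89.2% of the non-coding rows, whose median difference was -0.33. With heat in miR164OE it stood above 77.9%, with a median of -0.40. Between the genotypes it stood above 83.1% without heat and above 14.5% with heat, where the medians were -0.02 and -0.10. For the difference of heat differences it stood above 10.8%, with a median of -0.08. NAC1 in turn stood above 94.4% of the coding rows around such non-coding rows with heat in WT and above 81.1% in miR164OE, and both medians there were 0.

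The 2 further genes with close sites gave little to compare. AT3G12977 was listed at 0 FPKM in WT control, WT heat and miR164OE heat and at 5.27 in miR164OE control, on about 3.77 fragments. Without heat AT3G12977 was thus higher in miR164OE, opposite to the direction that overexpression would predict for a target. Its site was closer than that of ORE1, with a score of 2.5 against 3.5. AT1G10530 was listed at 0 in all 4 libraries. CUC3, the boundary gene closest to CUC1 and CUC2 in function and known to lack a miR164 site, was listed at 2.43 FPKM in WT heat, on about 2 fragments, and at 0 in the other libraries.

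Within the family of 100 numbered NAC genes, NAC1 ranked 5 by mean level with 20.5 FPKM and ORE1 ranked 12 with 3.86, and 30 genes averaged 1 FPKM or more. Of the 94 that are not targets in the set, 41 (43.6%) were listed at 0 throughout, against 4 of the 6 targets. Of the 28 that passed the mean of 1 FPKM, 10 were at least 2-fold higher and 2 lower with heat in WT, where 29.8% of all rows were higher and 21.7% lower. With heat in miR164OE 10 were higher and 6 lower, beside 32.5% and 17.2% of all rows. Between genotypes 6 were higher and 5 lower in miR164OE without heat, beside 16.8% and 18.9% of all rows, and 3 were higher and 4 lower with heat, beside 19.6% and 13.6%. Their medians were 0, 0.74, -0.02 and -0.05 on the log2 scale, against 0, 0.25, 0 and 0 for all rows.

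Named family members showed several patterns. ATAF2, a stress-related NAC gene, was listed at 5.72, 19.4, 8.85 and 7.502 FPKM, so that WT heat stood alone as the highest. XND1, known for restraining xylem differentiation, was listed at 3.96, 13.6, 3.86 and 7.34 FPKM. Both shared with NAC1 a higher level with heat in WT and a lower level in miR164OE heat than in WT heat. In WT heat and miR164OE heat about 17.4 and 9.65 fragments stood behind ATAF2, and about 11.5 and 8.91 behind XND1. The share of all rows with this pattern was not counted. NAC105, a gene of vessel differentiation, was listed at 25.2, 17.7, 9.19 and 18.4 FPKM and was lowest in miR164OE control. ANAC026, of the same group, was listed at 72.5, 45.5, 87.2 and 35.8 FPKM and was lower with heat in both genotypes. NAC055, a stress and jasmonate responsive gene, had 6.79, 5.36, 3.33 and 5.03 FPKM.

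**Figure D5:**
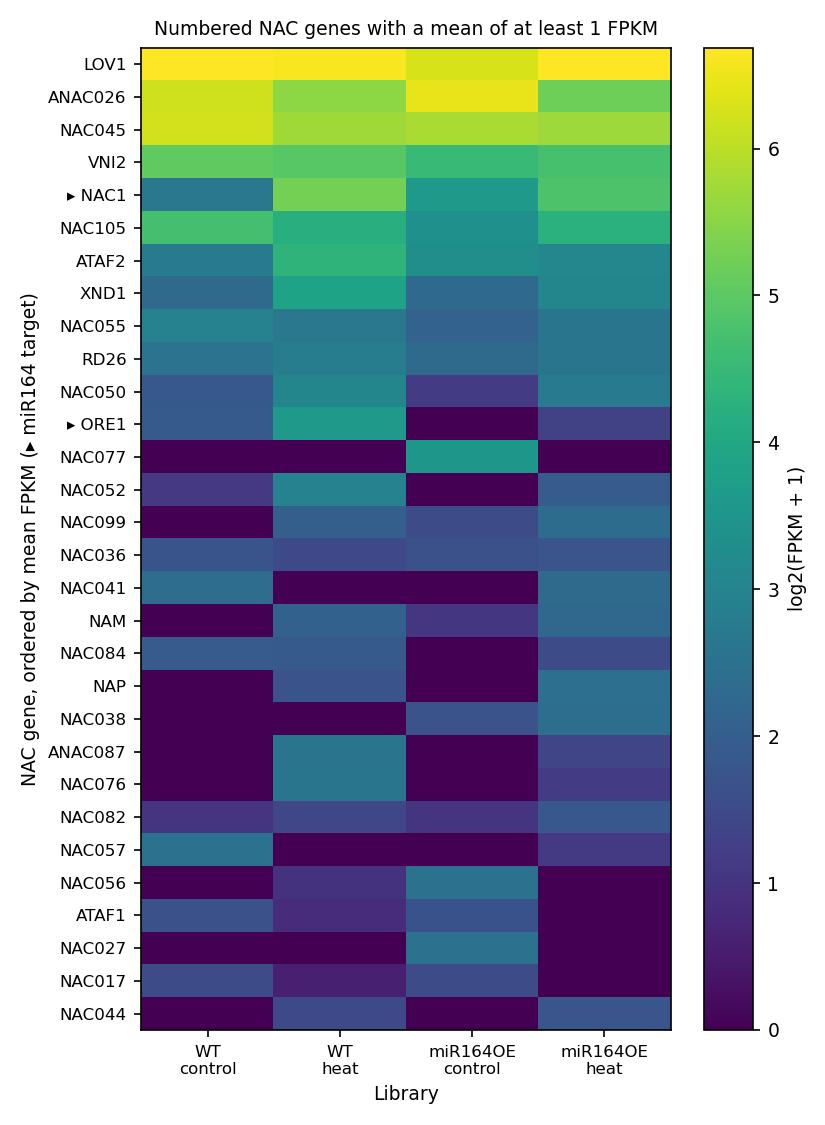
Levels as log2(FPKM + 1), by colour, of the 30 numbered NAC genes that averaged 1 FPKM or more, in the 4 libraries, ordered by mean, with the miR164 targets marked. NAC1 is in place 5 and ORE1 in place 12, with ORE1 at 0 in miR164OE control, and the other 4 targets are missing because they were listed at 0.

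Genes that act around ORE1 were counted next. Of 18 senescence and ORE1-linked genes, 7 passed the mean of 1 FPKM. Listed at 0 throughout were 5 of the 18, BFN1, SWEET15, RNS3, NOL and SAG12, as were 40% of all nuclear coding rows. BFN1 and RNS3 are nucleases and SWEET15 a sugar transporter of ageing leaves, and SAG12 is a protease widely used as a marker of senescence. Among the 7, 1 was higher and 1 lower with heat in WT (all rows 29.8% and 21.7%), and 2 were higher and 2 lower with heat in miR164OE (32.5% and 17.2%). Between genotypes 1 was higher and none lower in miR164OE without heat (16.8% and 18.9%), and none was higher and 2 were lower with heat (19.6% and 13.6%). Their medians on the log2 scale were 0.16 and 0.21 for heat in WT and miR164OE, and -0.50 and -0.19 for miR164OE minus WT without and with heat, beside the medians of all rows just given. SEN1, a gene marked by darkness and senescence, was listed at 92.4, 6.61, 46.9 and 0 FPKM, and was lower with heat in both genotypes. WRKY53, a senescence regulator, was listed at 17.5, 19.6, 39.2 and 7.45 FPKM, highest in miR164OE control and lowest in miR164OE heat. SEN4, a cell wall enzyme gene, had 29.1, 17.6, 16.0 and 27.2 FPKM.

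Upstream of ORE1, 12 regulators and partners were listed and 9 passed the mean of 1 FPKM. None was higher and 2 were lower with heat in WT, beside 29.8% and 21.7% of all rows, and 3 were higher and 3 lower with heat in miR164OE, beside 32.5% and 17.2%. Between genotypes 1 was higher and 3 lower in miR164OE without heat, beside 16.8% and 18.9% of all rows, and 1 was higher and none lower with heat, beside 19.6% and 13.6%. In the same order the medians were -0.23, 0.61, -0.05 and 0.33. PIF4, a light and temperature signalling factor known to activate ORE1, was listed at 2.67, 3.79, 10.97 and 4.28 FPKM. It rested on about 3.56, 5.76, 15.2 and 9.35 fragments and was highest in miR164OE control, where ORE1 was listed at 0. PIF5, its close relative, had 9.36, 8.90, 10.4 and 16.4 FPKM.

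Of 13 auxin and lateral root genes linked to NAC1, 4 passed the mean of 1 FPKM. None was higher and 1 lower with heat in WT (all rows 29.8% and 21.7%), and 1 was higher and none lower with heat in miR164OE (32.5% and 17.2%). Between genotypes none was higher and 1 lower in miR164OE without heat (16.8% and 18.9%), and 1 was higher and 2 lower with heat (19.6% and 13.6%). The medians were 0.58, 0.36, -0.43 and -0.38. IAA14, a repressor of auxin responses in lateral root initiation, was listed at 7.02, 14.5, 8.71 and 6.40 FPKM, with WT heat the highest as for NAC1. Of 12 boundary and meristem genes linked to CUC1 and CUC2, 7 passed. With heat 3 were higher and 2 lower in WT, and 2 higher and 1 lower in miR164OE, beside the shares of all rows just given. Between genotypes 3 were higher and 1 lower in miR164OE without heat, where 16.8% and 18.9% of all rows were, and 3 were higher and none lower with heat, where 19.6% and 13.6% were. Here the medians were 0.999, 0.28, 0.90 and 0.44. LAS initiates axillary meristems and is known to act downstream of the CUC genes. It was listed at 6.95, 0, 13.9 and 4.96 FPKM, on about 7.06, 0, 14.7 and 8.25 fragments. Its level was above WT in miR164OE both without and with heat.

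The microRNA machinery and the targets of other microRNAs served as a comparison. Of 11 pathway genes 4 passed the mean of 1 FPKM, with 2 higher and none lower with heat in each genotype, and 1 lower and none higher in miR164OE both without and with heat. The shares of all rows called higher and lower were 29.8% and 21.7% with heat in WT, 32.5% and 17.2% with heat in miR164OE, and 16.8% and 18.9% without and 19.6% and 13.6% with heat between genotypes. Medians were 1.13, 0.96, -0.17 and -0.20. Of 29 targets of other microRNAs 13 passed. They included 3 higher and 5 lower with heat in WT, 2 higher and none lower with heat in miR164OE, 3 higher and 2 lower in miR164OE without heat, and 4 higher and none lower with heat. Medians of these were -0.14, 0.39, -0.52 and 0.47. TCP2, a target of miR319, was listed at 13.4, 1.27, 6.36 and 3.12 FPKM, on about 13.1, 1.41, 6.45 and 4.97 fragments. Its genotype difference also had opposite signs, with miR164OE lower without heat and higher with heat.

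The coding genes most like each member were found by the distance between profiles of log2(FPKM + 1) over the 4 libraries, each centred on its own mean, among 1430 named genes that averaged 5 FPKM or more. For NAC1 they were RHL1, a gene of the DNA topoisomerase complex needed for root hairs, at a distance of 0.110, RLP51, a receptor-like protein gene, at 0.225, and UGT85A1, a cytokinin glucosyltransferase gene, at 0.258. RHL1 was listed at 6.08, 40.5, 13.1 and 30.3 FPKM. For AT1G08087 they were RLP35 at 0.0973, AGP18 at 0.0979 and XTH11 at 0.1003, and for ORE1 they were NPQ7 at 0.805, Rap2.6L at 0.940 and ROT3 at 1.002. Within a distance of 0.5 there were 20 genes for NAC1, 78 for AT1G08087 and 0 for ORE1. ORE1 itself averaged 3.86 FPKM on few fragments, so genes at its level were not among the candidates. With 4 points per profile such likeness is a description of these libraries.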

How the data were processed

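RNA from whole seedlings was measured in 4 libraries, 1 per group. The authors deposited 1 table of FPKM values. bcl2fastq 2.1.7, TopHat, Cufflinks and genome build TAIR10 are named per the submitters' processing notes, and the versions of TopHat and Cufflinks, the annotation, the strand setting and the sequencing depth were not given in the sources used here. Of 32538 rows found in the RefSeq annotation of TAIR10.1, 23335 had the same start and end, and coordinates, exon lengths and sequences come from that assembly.

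Differences are of log2(FPKM + 1), rows averaging 1 FPKM or more were counted (n = 10488), and a row was called at a difference of 1. The members and the 8 gene lists were chosen with earlier results of these data known, and the NAC family was added after its values were seen. Genes named from a list were the up to 3 with the largest absolute difference in a comparison among those averaging 5 FPKM or more. CUC3 and AT1G56000 were named outside this rule, after their values were seen.

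Approximate fragments are FPKM times exon length over the worth of 1 fragment, the mode of that product over rows of 800 to 2500 bases under 6 FPKM that no gene overlaps. Their 95% intervals are exact Poisson intervals, and those of ratios are exact binomial (Clopper-Pearson) intervals of the rounded fragments. Both cover counting error only and inherit the approximation. Non-coding rows compared with AT1G08087 had at least 300 bases, at least 90% of them inside 1 coding gene on the other strand, and a mean of at least 20 FPKM. Sites were sought without gaps in every annotated transcript. The 2-fold call and the estimate of fragment worth were tried on simulated data. For the fragment worth, simulated rates were set below the listed levels so that single fragments were common. The estimate was not tried at the listed levels. For the call, each simulated row had at least 20 expected fragments before a change was planted. It therefore does not cover rows with fewer, such as ORE1 in every library and NAC1 in the control libraries. Alternatives were pseudocounts of 0.1 and 5, other row minimums, 2 rescalings, the row on the other strand, and a site score of 4. Python 3.11.15, numpy 2.4.6, pandas 2.3.3, scipy 1.17.1, Biopython 1.88 and matplotlib 3.10.9 were used.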

Additional observations from a re-analysis of the deposited data

Results flagged for a closer look

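NAC1 differed in opposite directions between the genotypes without and with heat. miR164OE minus WT was 0.90 on the log2(FPKM + 1) scale between the control libraries and -0.48 between the heat libraries. AT1G08087, the row inside NAC1 on the other strand, did the same, at 0.44 without heat and -0.54 with heat. Each value compares 1 library with 1 library, and the difference between them was not tested. The counting intervals of all 4 underlying ratios included no change.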

How the results depend on the processing

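No paired analysis was possible because each group had 1 library, and for the same reason no library could be left out. For heat in miR164OE, NAC1 lost its call with coding rows that no gene overlaps rescaled to a common sum (0.99) and when read from the other strand (0.41), ORE1 lost it with a pseudocount of 5 (0.37), and AT1G08087 gained one with nuclear rows rescaled (1.33). Between the controls NAC1 gained a call with a pseudocount of 0.1 (1.01) and ORE1 lost its call with one of 5 (-0.63). For the difference of heat differences NAC1 lost its call when read from the other strand (-0.99), AT1G08087 gained one with a pseudocount of 0.1 (-1.002) or coding rows rescaled (-1.02), and ORE1 changed sign with a pseudocount of 0.1, from -0.41 to 1.975, since a level of 0 weighs more there. A site score of 4 admitted 50 genes instead of 7. Of the other values for the members, for directions and for the worth of 1 fragment, 81 kept their side or moved little, among them the lower call of ORE1 in miR164OE heat. Some of the 81 could not change and are no check. No pseudocount or row minimum altered the listed values from which directions were counted. Nor can a row minimum move the differences of NAC1 and AT1G08087. Rescaling nuclear rows moved the median row to 0.70 for heat in WT and 1.09 in miR164OE, and the share of higher rows among those called from 57.8% to 76.7% and from 65.4% to 87.0%. A row minimum of 5 FPKM left out ORE1 from the differences, though not from the counts of directions. About 2 fragments stood behind ORE1 in WT control and in miR164OE heat, which limits every statement on it.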
